A study of Homo sapiens with 8 samples.

Results

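The 8 genes described here, CCN1, CCN2, ANKRD1, AMOTL1, AMOTL2, LATS2, AXL and AJUBA, are long-known transcriptional targets of the co-activator YAP, and were chosen by name. For each gene, open chromatin was examined in the gene body and 50 kb on each side, in 8 lists of peaks from ATAC-seq, an assay in which a transposase cuts exposed DNA and marks it for sequencing. Peaks of the 8 lists that overlapped were merged, and a merged region with a peak in at least 2 libraries was called a site. Of 75501 sites in the genome, 85 lay in the windows of these 8 genes, out of 19794 protein-coding genes in the annotation.

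The cells were LX-2, an immortal line derived from stellate cells of the human liver, labelled as wild type and grown on polyacrylamide hydrogels coated with fibronectin. The soft hydrogels were of about 2 kPa and the stiff ones of about 40 kPa. Libraries were made after 2 or 4 days (D2, D4), with 2 replicates for each of D2 soft, D2 stiff, and the same 2 matrices on day 4 (D4 soft, D4 stiff). A single cell line was used. The study's methods call the replicates of its sequencing experiments biological, the labels do not add how the cultures were separated, and every p-value below measures only the spread between these libraries of 1 line. The study compared the matrices to ask how stiffness changes chromatin, and the windows of YAP targets address that question at genes whose use is widely taken as a readout of stiffness sensing.

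YAP and its relative TAZ do not bind DNA themselves. When the Hippo kinases LATS1 and LATS2 are inactive, YAP and TAZ enter the nucleus and bind TEAD transcription factors, which recognise the letters GGAATG, often at enhancers where AP-1 factors also bind. Stiff surroundings and cytoskeletal tension are known to drive YAP into the nucleus in many adherent cells, stellate cells included. The 8 genes fall into 4 roles. CCN1 and CCN2 encode secreted matricellular proteins, ANKRD1 encodes an ankyrin repeat protein of nucleus and sarcomere, and AXL encodes the receptor tyrosine kinase for GAS6. LATS2, AMOTL1, AMOTL2 and AJUBA act back on the pathway: LATS2 is a kinase that phosphorylates YAP, the angiomotin-like proteins AMOTL1 and AMOTL2 bind YAP in the cytoplasm and at junctions, and AJUBA is a LIM-domain protein that binds and restrains LATS kinases.

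The lists held 29789 to 72840 peaks, and D2 soft replicate 1 was the shortest list and the least deep library, at 0.78 fragments per kb of genome against 2.08 to 3.15 in the other libraries, as estimated from the peak values. Of the 10 marker genes of stellate cells and fibroblasts 5 had a promoter peak in every library (COL1A1, PDGFRB, ACTA2, TAGLN and RGS5), COL1A2 and HAND2 had one in 6, and COL3A1, LRAT and DES in none. Of 4 hepatocyte markers, ALB, APOA1 and SERPINA1 had a promoter peak in no library and TTR in 2. Of the leukocyte markers PTPRC, CD3E and MS4A1 had none and CD68 had one in all 8, and of the cholangiocyte markers KRT19 and KRT7 had none, EPCAM had one in 6 and SOX9 in 7 libraries. Of the endothelial markers STAB2 had none, TEK had one in 2 and CDH5 in 4 libraries, and PECAM1 was not matched in the annotation.

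Sequences are shown first for 10 sites, chosen because their letters include those that TEAD factors, AP-1 factors or serum response factor recognise and because the results below return to them. Each runs 5′ to 3′ on the strand of its gene and covers up to 100 bases on either side of the summit, without annotated exons, in hg19 (GRCh37). Capitals mark GGAATG or its reverse CATTCC (TEAD), TGACTCA or TGAGTCA (AP-1) and the CArG box of serum response factor, which is CC, then 6 letters A or T, then GG. The CCN2 promoter (chr6:132272513-132272679) held GGAATG at 2 positions just upstream of the start of the gene, the CCN1 promoter (chr1:86046241-86046441) and the ANKRD1 promoter (chr10:92681024-92681224) held it once each, and the internal AJUBA promoter (chr14:23446990-23447190) once.
CCN2 promoter: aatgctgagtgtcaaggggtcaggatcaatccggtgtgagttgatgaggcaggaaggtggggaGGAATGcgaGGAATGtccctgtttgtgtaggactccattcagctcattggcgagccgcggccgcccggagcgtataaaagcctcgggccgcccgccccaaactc
CCN1 promoter: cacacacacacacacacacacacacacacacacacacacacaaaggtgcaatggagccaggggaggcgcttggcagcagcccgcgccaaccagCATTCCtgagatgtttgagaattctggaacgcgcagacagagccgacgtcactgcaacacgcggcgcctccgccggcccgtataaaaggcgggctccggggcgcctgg
ANKRD1 promoter: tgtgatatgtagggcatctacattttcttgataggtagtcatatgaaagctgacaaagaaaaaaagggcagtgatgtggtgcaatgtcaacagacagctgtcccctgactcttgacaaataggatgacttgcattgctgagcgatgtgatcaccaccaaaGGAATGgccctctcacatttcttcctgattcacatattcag
AJUBA internal promoter: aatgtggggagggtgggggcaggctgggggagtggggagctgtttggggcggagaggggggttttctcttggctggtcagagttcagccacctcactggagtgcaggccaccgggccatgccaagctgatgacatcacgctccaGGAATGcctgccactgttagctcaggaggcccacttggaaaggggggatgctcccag

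The remaining 6 sequences are from distal sites. They are the CCN2 upstream site nearest to the promoter (chr6:132275966-132276166), in which the AP-1 and TEAD letters adjoin with 0 bases between them, and the far upstream CCN2 site found in D4 stiff alone (chr6:132317196-132317396), in which they overlap by 2 letters. The CCN2 downstream site (chr6:132259180-132259380) held the TEAD letters at 3 positions, and an AXL site (chr19:41729478-41729678) between the first start of the gene and an internal one held both kinds at 2 positions each. The LATS2 upstream site (chr13:21643834-21644034) had the best mean rank in fold enrichment among the distal sites of the 8 genes, though not by other measures given below. The CCN1 upstream site (chr1:86042629-86042829) held the CArG box and lay within the neighbouring gene DDAH1.
CCN2 upstream: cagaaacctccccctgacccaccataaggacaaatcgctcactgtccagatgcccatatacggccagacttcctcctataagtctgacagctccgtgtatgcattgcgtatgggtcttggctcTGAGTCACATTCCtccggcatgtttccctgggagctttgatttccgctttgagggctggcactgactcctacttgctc
CCN2 far upstream: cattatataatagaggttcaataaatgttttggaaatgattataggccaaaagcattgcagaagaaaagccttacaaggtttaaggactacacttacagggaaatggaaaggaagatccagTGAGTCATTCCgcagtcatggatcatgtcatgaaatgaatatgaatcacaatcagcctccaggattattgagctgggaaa
CCN2 downstream: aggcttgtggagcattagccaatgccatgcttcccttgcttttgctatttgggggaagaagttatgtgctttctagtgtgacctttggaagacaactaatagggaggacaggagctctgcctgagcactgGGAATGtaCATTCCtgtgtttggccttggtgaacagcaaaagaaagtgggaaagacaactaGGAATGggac
AXL intron: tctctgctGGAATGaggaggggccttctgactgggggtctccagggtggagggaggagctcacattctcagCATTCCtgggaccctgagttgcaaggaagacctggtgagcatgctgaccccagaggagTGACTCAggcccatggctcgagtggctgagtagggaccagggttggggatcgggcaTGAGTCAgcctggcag
LATS2 upstream: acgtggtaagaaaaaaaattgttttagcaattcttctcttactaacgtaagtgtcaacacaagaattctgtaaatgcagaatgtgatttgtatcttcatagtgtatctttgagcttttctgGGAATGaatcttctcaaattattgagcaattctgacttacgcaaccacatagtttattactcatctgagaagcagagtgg
CCN1 upstream: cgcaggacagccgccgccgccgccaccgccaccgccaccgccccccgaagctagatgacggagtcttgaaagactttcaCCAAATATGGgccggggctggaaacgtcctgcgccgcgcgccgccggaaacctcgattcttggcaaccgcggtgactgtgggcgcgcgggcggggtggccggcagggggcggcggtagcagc

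Sites around these genes had a peak in every library more often than sites over the genome, though most did not. Of the 85 window sites, 37 (43.5%) had a peak in all 8 libraries, against 32.1% of all sites in the genome. A promoter peak, meaning a site within 1 kb of a protein-coding transcript start of the gene, was found in all 8 libraries for 6 of the 8 genes, against 46.3% of coding genes. The exceptions were the 2 secreted factors: CCN1 had its promoter peak in 5 libraries and CCN2 in 7. Among the 13 window sites with a peak in 7 libraries, 10 lacked it in D2 soft replicate 1, and that library lacked a peak at 43 of the 85 sites, as it did at 61.7% of all sites. A missing peak means that the library's signal did not pass the peak caller, not that the region was closed.

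**Figure D1:**
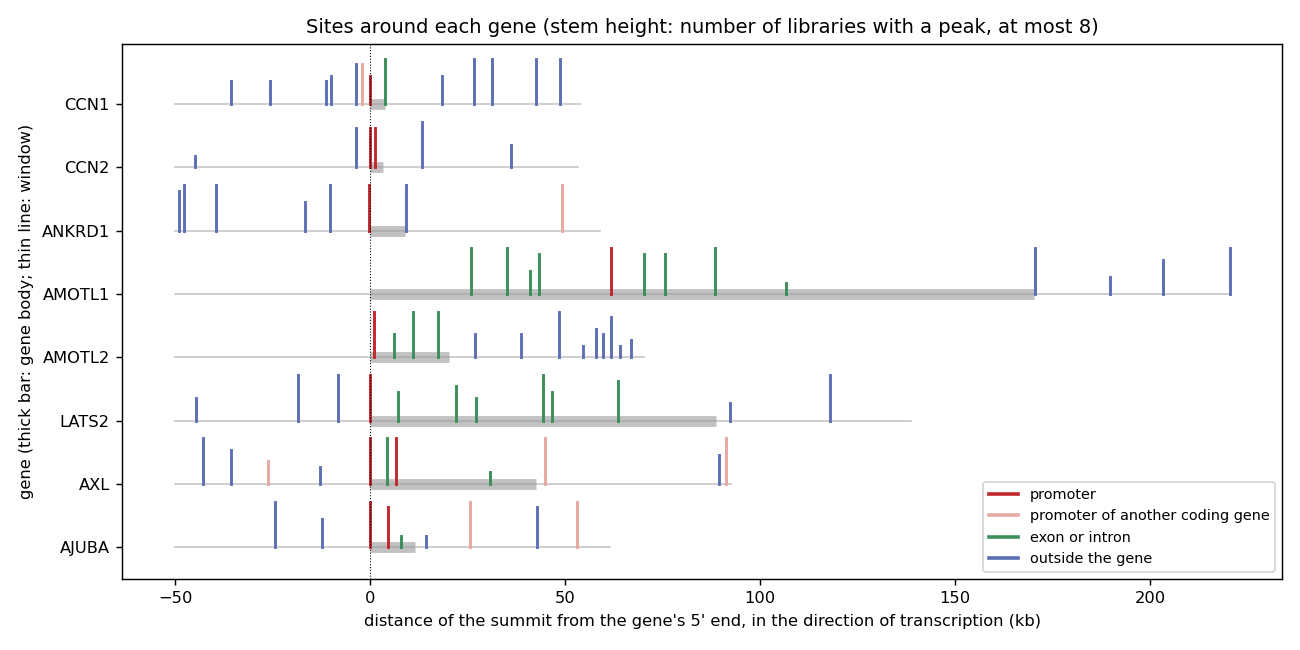
Position of the 85 sites around each gene. The x axis gives the distance of the peak summit from the gene's 5' end in kb, in the direction of transcription, and the height of each stem the number of libraries with a peak, at most 8. The AMOTL1 promoter site stands at an internal start 61.8 kb into the gene, and the AMOTL2 window has no site upstream of the gene.

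By position, 11 window sites were promoters of the 8 genes, 7 were promoters of other coding genes, 21 lay in exons or introns and 46 lay outside the gene. CCN1 (chr1:86046444-86050272, plus strand) had 13 sites, 12.5 per 100 kb of window, and 10 of them lay outside the gene. CCN2 (chr6:132269316-132272512, minus strand) had 6 sites, of which 1 was found in all 8 libraries. ANKRD1 (chr10:92671853-92680844, minus strand) had 8 sites and 6 of them in every library. AMOTL1 (chr11:94439597-94609913, plus strand), the longest of these genes, had 13 sites at 4.81 per 100 kb, the lowest density. AMOTL2 (chr3:134074189-134094321, minus strand) had 13, LATS2 (chr13:21547175-21635725, minus strand) 12, AXL (chr19:41725128-41767671, plus strand) 11 and AJUBA (chr14:23440386-23451760, minus strand) 9. The windows of AXL and AJUBA also took in promoters of their neighbours CYP2S1, HNRNPUL1 and CCDC97, and PRMT5 and HAUS4, and those of CCN1 and ANKRD1 the promoters of DDAH1 and RPP30.

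Promoter peaks were next compared by fold enrichment, the ratio of fragments piled up at a peak's summit to the background that the caller estimated around it. Fold enrichment can be set side by side only within a list, so each value is read with its rank, given as the percent of the library's peaks with an equal or higher value. In each pair of values replicate 1 comes first. Statements on which libraries were higher or lower at a site rest on ranks, not on the fold enrichments: for sites with a peak in all 8 libraries on the rank among such sites within each library, and for other sites on the rank in the whole list.

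By mean rank in fold enrichment, the strongest promoter was that of ANKRD1, with a site at chr10:92680614-92681525. Its fold enrichment was 9.04 and 11.5 on soft against 13.3 and 13.9 on stiff hydrogels on day 2, and 13.8 and 10 on soft against 13.6 and 17.0 on stiff hydrogels on day 4. It ranked among the highest 0.604% of peaks in D4 stiff replicate 2, where it was strongest, and among the highest 16.4% in D4 soft replicate 2, where its rank was lowest. The soft and stiff libraries overlapped, because D4 soft replicate 1 ranked it above every stiff library but D4 stiff replicate 2.

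AMOTL1 had no site within 1 kb of its first start, and its promoter site (chr11:94501207-94502594) lay at an internal start. Fold enrichment there was 7.85 and 10.8 on soft against 12.7 and 11.2 on stiff hydrogels on day 2, and 13.4 and 11.5 on soft against 11.8 and 14.8 on stiff hydrogels on day 4. By rank soft and stiff libraries overlapped on both days, and D2 stiff replicate 2 was the lowest library.

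The LATS2 promoter (chr13:21635230-21636135) had fold enrichments of 5.53 and 8.54 on soft against 11.7 and 10.9 on stiff hydrogels on day 2, and 9.44 and 9.17 on soft against 11.8 and 13.1 on stiff hydrogels on day 4. Within the lists it was among the highest 61.5% and 39.1% on soft against 12.2% and 21.9% on stiff hydrogels on day 2, and 26.6% and 23.3% on soft against 12.8% and 9.17% on stiff hydrogels on day 4. Every stiff library ranked it higher than every soft library. The test of that difference follows below.

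The AMOTL2 promoter (chr3:134092231-134094217) had fold enrichments of 6.08 and 6.32 on soft against 9.01 and 6.17 on stiff hydrogels on day 2, and 5.87 and 5.33 on soft against 8.29 and 7.14 on stiff hydrogels on day 4. By rank both stiff libraries lay above both soft ones on day 4, whereas on day 2 D2 stiff replicate 1 lay above both soft libraries and D2 stiff replicate 2 below both.

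AXL had a site at its first start (chr19:41724629-41725250) and another at an internal start (chr19:41731368-41732393). At the first start fold enrichment was 4.89 and 6.48 on soft against 7.44 and 4.44 on stiff hydrogels on day 2, and 4.47 and 4.79 on soft against 5.04 and 5.16 on stiff hydrogels on day 4. At the internal start it was 6.81 and 7.29 on soft against 7.42 and 5.66 on stiff hydrogels on day 2, and 6.53 and 5.91 on soft against 6.16 and 5.75 on stiff hydrogels on day 4. By rank soft and stiff libraries overlapped at both starts on day 2. On day 4 the stiff libraries lay between the soft ones at the first start and below both at the internal start.

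AJUBA also had 2 promoter sites. At the first start (chr14:23451700-23452669) all 8 libraries had a peak with a fold enrichment of 3.69 and 4.98 on soft against 4.90 and 3.98 on stiff hydrogels on day 2, and 3.57 and 4.23 on soft against 3.43 and 4.66 on stiff hydrogels on day 4. At the internal start (chr14:23446678-23447713) D2 soft replicate 1 had no peak, and the other libraries gave 5.23 on soft against 5.22 and 6.0 on stiff hydrogels on day 2, and 5.06 and 3.38 on soft against 5.16 and 6.04 on stiff hydrogels on day 4. Both sites were weak on average, among the highest 90.4% and 79.6% of peaks, and the matrices overlapped at both by rank.

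**Figure D2:**
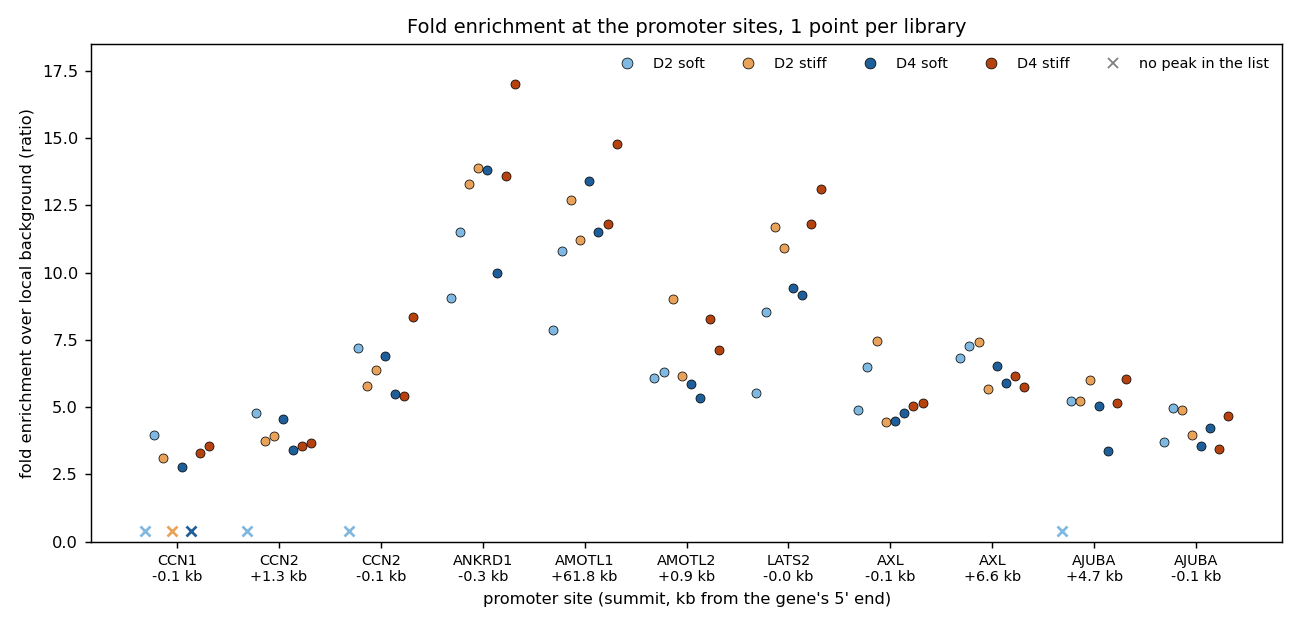
Fold enrichment over local background (y axis, ratio) at the 11 promoter sites (x axis, with the distance of the summit from the gene's 5' end), 1 point per library, coloured by group, with crosses at the bottom for libraries that have no peak. ANKRD1 reached 17.0 in D4 stiff replicate 2, the LATS2 promoter ran from 5.53 to 13.1, and CCN1 stayed at 3.98 or below. Values of different libraries are not directly comparable.

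The weakest promoter peak by this measure was that of CCN1, one of the best-known targets. The CCN1 promoter (chr1:86046171-86046901) had no peak in D2 soft replicate 1, D2 stiff replicate 2 and D4 soft replicate 2. In the other libraries its fold enrichment was 3.98 on soft against 3.12 on stiff hydrogels on day 2, and 2.77 on soft against 3.31 and 3.54 on stiff hydrogels on day 4. These values put it near the bottom of each list, since 94.6% to 99.9% of peaks had an equal or higher fold enrichment.

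The promoter of the other secreted factor, CCN2 (chr6:132272159-132272967), had no peak in D2 soft replicate 1. Its fold enrichment was 7.21 on soft against 5.78 and 6.37 on stiff hydrogels on day 2, and 6.90 and 5.47 on soft against 5.43 and 8.34 on stiff hydrogels on day 4, and soft and stiff libraries overlapped by rank. A second CCN2 site at chr6:132270841-132271905, within the gene, lacked a peak in the same library and gave 4.79 on soft against 3.75 and 3.91 on stiff hydrogels on day 2, and 4.57 and 3.39 on soft against 3.56 and 3.66 on stiff hydrogels on day 4.

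The low ranks of CCN1 and CCN2 depended on the measure. The caller's p-value and fold enrichment together fix the number of fragments piled up at the summit and the background they were compared with, and both were recovered for 100% of peaks. At the CCN1 promoter the pileup was 48 fragments on soft against 32 on stiff hydrogels on day 2, and 38 on soft against 98 and 66 on stiff hydrogels on day 4. The background there was 11.3, 9.59, 13.1, 28.9 and 17.9 fragments in the same libraries, against a median over each whole list of 0.748 to 1.86. These counts were not scaled to depth, which was highest in D4 stiff replicates 1 and 2, at 3.15 and 2.87 fragments per kb. They therefore give no comparison of the matrices. By pileup the CCN1 promoter was on average among the highest 6.66% of peaks, by −log10 p among the highest 52.1%, and by fold enrichment among the highest 97.8%, while by background it was among the highest 0.0464%. The CCN2 promoter was on average among the highest 9.47% by pileup, 25.2% by −log10 p, 62.7% by fold enrichment and 2.02% by background.

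The same gap was seen at most other promoter sites, but not at all of them. AXL at its internal start was among the highest 2.4% by pileup and 59.7% by fold enrichment, and the first AJUBA start 25.3% and 90.4%. ANKRD1 (3.84% and 8.07%), AMOTL1 (7.85% and 12.5%) and LATS2 (21.5% and 25.8%) had similar ranks by both measures. Over all 85 sites, 9 (10.6%) had a mean background among the highest 1% of each list, against 0.690% of all sites. Of these, 6 were in the CCN1 window and 3 in the AXL window. How far the sites of a window share their background was not tested. When no control library is given, the caller takes the background from the same library around the peak, so that reads of adjacent open regions enter it. The part of this in the low ranks was not tested.

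**Figure D3:**
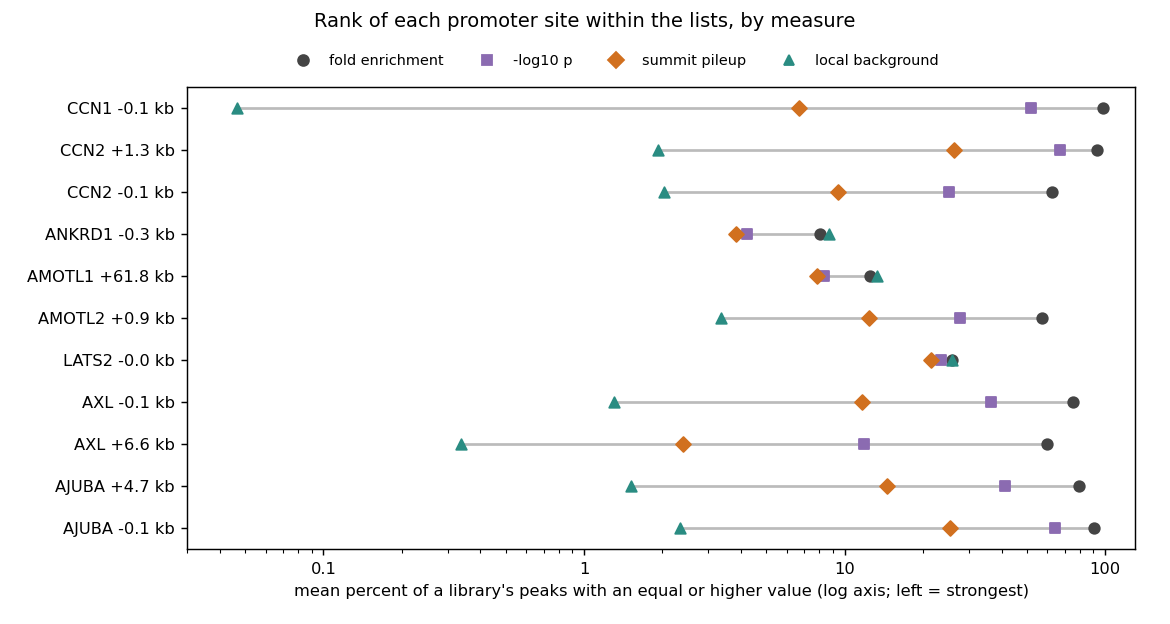
Mean rank of each promoter site within the lists that have it, as the percent of peaks with an equal or higher value (x axis, log scale, strongest at the left), for fold enrichment, −log10 p, summit pileup and local background. For CCN1 the markers spread from 0.0464% (background) to 97.8% (fold enrichment), whereas those of LATS2 lie between 21.5% and 25.8%.

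Distal sites were examined next, taking for each gene the 2 sites found in all 8 libraries with the best mean rank in fold enrichment. The highest of all was the LATS2 upstream site at chr13:21643717-21644162, with its summit at −8.21 kb from the start. Its fold enrichment was 11.1 and 14.0 on soft against 12.8 and 14.9 on stiff hydrogels on day 2, and 13.0 and 10.8 on soft against 16.5 and 16.2 on stiff hydrogels on day 4, and on average it was among the highest 4.68% of peaks. By rank both stiff libraries lay above both soft ones on day 4, and on day 2 the groups overlapped. The other LATS2 site, beyond the 3′ end of the gene (chr13:21517406-21518154), was on average among the highest 6.10%, with fold enrichments from 8.73 in D2 soft replicate 1 to 15.7 in D2 stiff replicate 2.

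The AJUBA window was led by promoters of its neighbours, PRMT5 (chr14:23398305-23399822, mean rank among the highest 5.67%) and HAUS4 (chr14:23425562-23426589, 10.8%). Both were far above the promoter of AJUBA itself in fold enrichment, which reached 10.9 to 15.5 at PRMT5. ANKRD1 had 2 strong upstream sites, at chr10:92719852-92720675 (11.3%) and chr10:92690149-92691405 (15.3%), beside its strong promoter. Apart from the RPP30 promoter (22.9%), its other sites outside the gene ranked lower, at 47.8% to 76.9%. AMOTL1 had sites at its 3′ end (chr11:94609598-94610289, 11.1%) and in an intron (chr11:94527147-94528323, 12.2%).

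The CCN1 window held the strongest peak of all 85 sites by pileup. The site at chr1:86072289-86073453, 26.63 kb downstream of the start, had 62 and 102 fragments at its summit on soft against 73 and 117 on stiff hydrogels on day 2, and 132 and 113 on soft against 210 and 140 on stiff hydrogels on day 4. These counts were not scaled to depth, which was highest in the D4 stiff libraries. By rank within the lists, this site was on average among the highest 0.121% of peaks by pileup and 0.414% by −log10 p. By fold enrichment, which was 9.79 to 11.6, it was among the highest 18.9%, behind the CCN1 site at chr1:86088334-86089315 (16.7%). These distal CCN1 sites thus ranked far above the CCN1 promoter in fold enrichment.

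In the CCN2 window a single site had a peak in all 8 libraries, the downstream site with 3 TEAD matches at chr6:132259120-132259792. Its fold enrichment was 6.02 and 7.71 on soft against 7.87 and 12.9 on stiff hydrogels on day 2, and 8.88 and 6.76 on soft against 9.26 and 9.81 on stiff hydrogels on day 4. By rank soft and stiff libraries overlapped on both days. Over both days its rank score differed by 0.39, with an unadjusted limma p of 0.294. AMOTL2 had intronic sites at chr3:134082809-134084024 (20.2%) and chr3:134076498-134077647 (28.7%). AXL had an upstream site at chr19:41681906-41682594 (20.2%) and the HNRNPUL1 promoter at chr19:41768027-41770413 (37%).

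The distal sites whose letters are shown above and that lay nearest to CCN1, CCN2 and AXL were weaker by fold enrichment. The CCN2 upstream site with adjoining AP-1 and TEAD letters (chr6:132275372-132276130) had a peak in every library but D4 soft replicate 1. Its fold enrichment was 3.77 and 5.58 on soft against 6.11 and 5.42 on stiff hydrogels on day 2, and on day 4 it was 4.44 in the remaining soft library against 3.73 and 4.8 on stiff hydrogels. By rank the matrices overlapped on both days. The AXL site with both kinds of letters at 2 positions each (chr19:41729139-41729887) had a peak in all 8 libraries, with fold enrichments of 4.15 to 5.49 and pileups of 30 to 98 fragments. It was on average among the highest 3.80% of peaks by pileup and 82.9% by fold enrichment, and its rank score differed by −0.34 between stiff and soft (unadjusted limma p 0.327). The CCN1 upstream site with the CArG box (chr1:86042120-86043024) lacked a peak in D2 soft replicate 1 and had fold enrichments of 2.90 to 3.86 in the other 7 libraries.

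**Figure D4:**
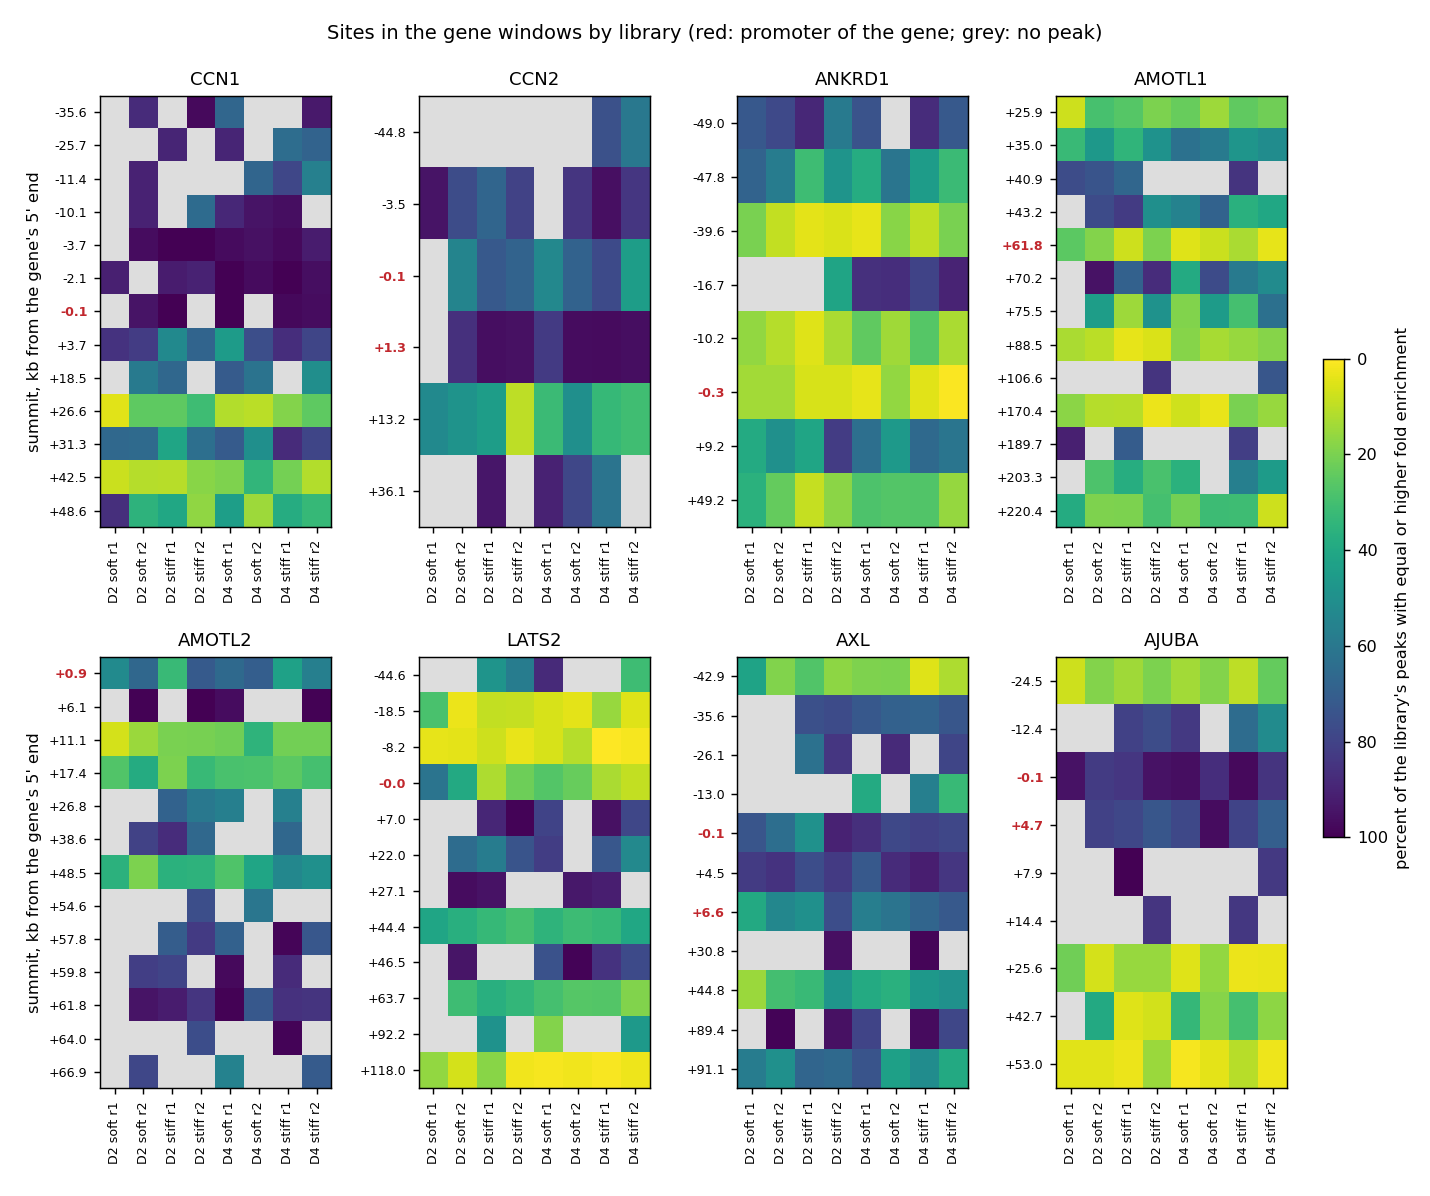
Rank of every window site in every library. Columns are libraries, rows are sites with the distance of the summit from the gene's 5' end in kb (promoters in red), colour is the percent of the library's peaks with an equal or higher fold enrichment (yellow strongest), and grey marks a library with no peak. The grey cells gather in D2 soft replicate 1, which lacked 43 of 85 sites, and the ANKRD1 promoter row is yellow throughout.

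The first comparison asked which sites were present on one matrix and absent on the other. No window site had a peak in all 4 stiff libraries and in no soft library, a pattern that 0.850% of all sites showed, and none had the opposite pattern, which 0.0172% showed. Without D4 soft replicate 1, 3 window sites had a peak in every stiff and no soft library.

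On day 2, 7 window sites (8.24%) had a peak in both stiff libraries and in neither soft library, against 7.45% of all sites, so the share was close to the background. They were 2 near AMOTL2 (chr3:134036265-134036602 and chr3:134067423-134067762), 2 at LATS2 (chr13:21628597-21629826 in an intron and chr13:21680084-21680652 upstream), 2 near AXL (chr19:41689308-41689674 and the CYP2S1 promoter at chr19:41698518-41699276) and 1 near AJUBA (chr14:23463882-23464576). None was in the CCN1, CCN2, ANKRD1 or AMOTL1 windows. All 7 were weak, with fold enrichments of 3.24 to 7.56 in the D2 stiff libraries, and each had a peak in at least 1 D4 soft library. For example, the AXL upstream site at chr19:41689308-41689674 gave 5.51 and 5.59 on stiff hydrogels on day 2, and 5.43 and 5.44 on soft against 6.04 and 5.57 on stiff hydrogels on day 4.

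The count of 7 depended on the lists and libraries used. When every list was shortened to the length of the shortest, it fell to 0, and without D2 soft replicate 2 it was 20, without D2 stiff replicate 1 it was 13 and without D2 stiff replicate 2 it was 11. Shortening also left fewer window sites, and leaving out a library eases the rule by construction. The part of the low depth of D2 soft replicate 1 in this pattern was not tested. The opposite pattern on day 2, both soft and no stiff library, was found at no window site and at 0.391% of all sites, but without D2 soft replicate 1 at 3 window sites.

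On day 4, 1 window site (1.18%) had a peak in both stiff libraries and in neither soft library, against 6.72% of all sites. It was the far upstream CCN2 site at chr6:132317149-132317411, which had no peak on day 2 either, with fold enrichments of 5.49 and 6.81 in D4 stiff and pileups of 9 and 10 fragments. Its sequence holds overlapping AP-1 and TEAD letters, shown above. Without D4 soft replicate 1 the count was 11, without D4 stiff replicate 2 it was 6, and without either of the other day 4 libraries it was 3. No window site had the opposite pattern, shown by 1.31% of all sites, though 2 had it without D4 stiff replicate 1.

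The second comparison asked whether sites open in every library were ranked higher on one matrix. Fold enrichments were ranked within each library over the 24246 sites with a peak in all 8 and turned into normal scores, so that a difference of 1 is 1 SD of the ranking, and the scores were compared by limma with Benjamini-Hochberg adjustment over all these sites. None of the 37 window sites was called in the comparison of stiff with soft over both days, and the lowest adjusted p was 0.622. Over the genome 0.00825% of sites were called. With so few calls anywhere and 2 libraries per group, the absence of calls does not show that the window sites were unchanged. Sites that lacked a peak in any library were not in this fit. The study instead compared read counts in peaks, and reported more sites gaining than losing accessibility on the stiff matrix. At an unadjusted p under 0.05 there were 2 window sites of 37, against 7.72% of all sites. The median difference of the window sites was −0.0675, beside −0.0174 over all sites, and 16 of the 37 were higher on the stiff matrix. Because scores were set within each library, a gain shared by most sites would not show in this comparison or in those that follow.

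The LATS2 promoter had the largest difference in favour of the stiff matrix among the 37, 0.76 ± 0.34 (SE), with a 95% confidence interval of 0.07 to 1.44, an unadjusted limma p of 0.0321 and an adjusted p of 0.622. Its rank scores were −0.58 and −0.40 on soft against 0.66 and 0.18 on stiff hydrogels on day 2, and −0.05 and 0.16 on soft against 0.55 and 0.76 on stiff hydrogels on day 4. It was the 1 window site at which every stiff library lay above every soft library, as at 1.88% of all tested sites, and no window site had the opposite order, as 2.12% did. Ranked by summit pileup instead, the difference was 0.57. The difference did not pass correction.

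The ANKRD1 promoter differed by 0.56 ± 0.35 (SE), with an interval of −0.16 to 1.28 and an adjusted limma p of 0.732. The AMOTL2 promoter differed by 0.20, the AMOTL1 promoter by 0.01, the first AJUBA start by −0.25, the first AXL start by −0.30 and the internal AXL start by −0.71, and the limma intervals of all 5 included 0. The promoters of CCN1 and CCN2 were not in this fit, because not every library had a peak there.

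Other sites with small unadjusted p-values pointed the other way. The CCN1 site at chr1:86072289-86073453 was lower on the stiff matrix by −0.78 (interval −1.51 to −0.04, limma unadjusted p 0.0398, adjusted p 0.637). The AMOTL2 downstream site at chr3:134045629-134047466 gave −0.67 with an adjusted limma p of 0.655, and the HNRNPUL1 promoter −0.69 with 0.658. These differences depended on the measure: ranked by summit pileup, the CCN1 site gave −0.11, the AMOTL2 site 0.07, the HNRNPUL1 promoter −0.06 and the internal AXL start −0.01. None of them was called by either measure. D2 soft replicate 1, the least deep library, had the highest rank score at the CCN1 site (1.58), the HNRNPUL1 promoter (0.9) and the internal AXL start (0.06). At the AMOTL2 site it did not. Without 1 library at a time these 3 differences ranged from −1.14 to −0.41, −0.92 to −0.46 and −0.94 to −0.46. The AMOTL2 difference ranged from −0.77 to −0.57.

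**Figure D5:**
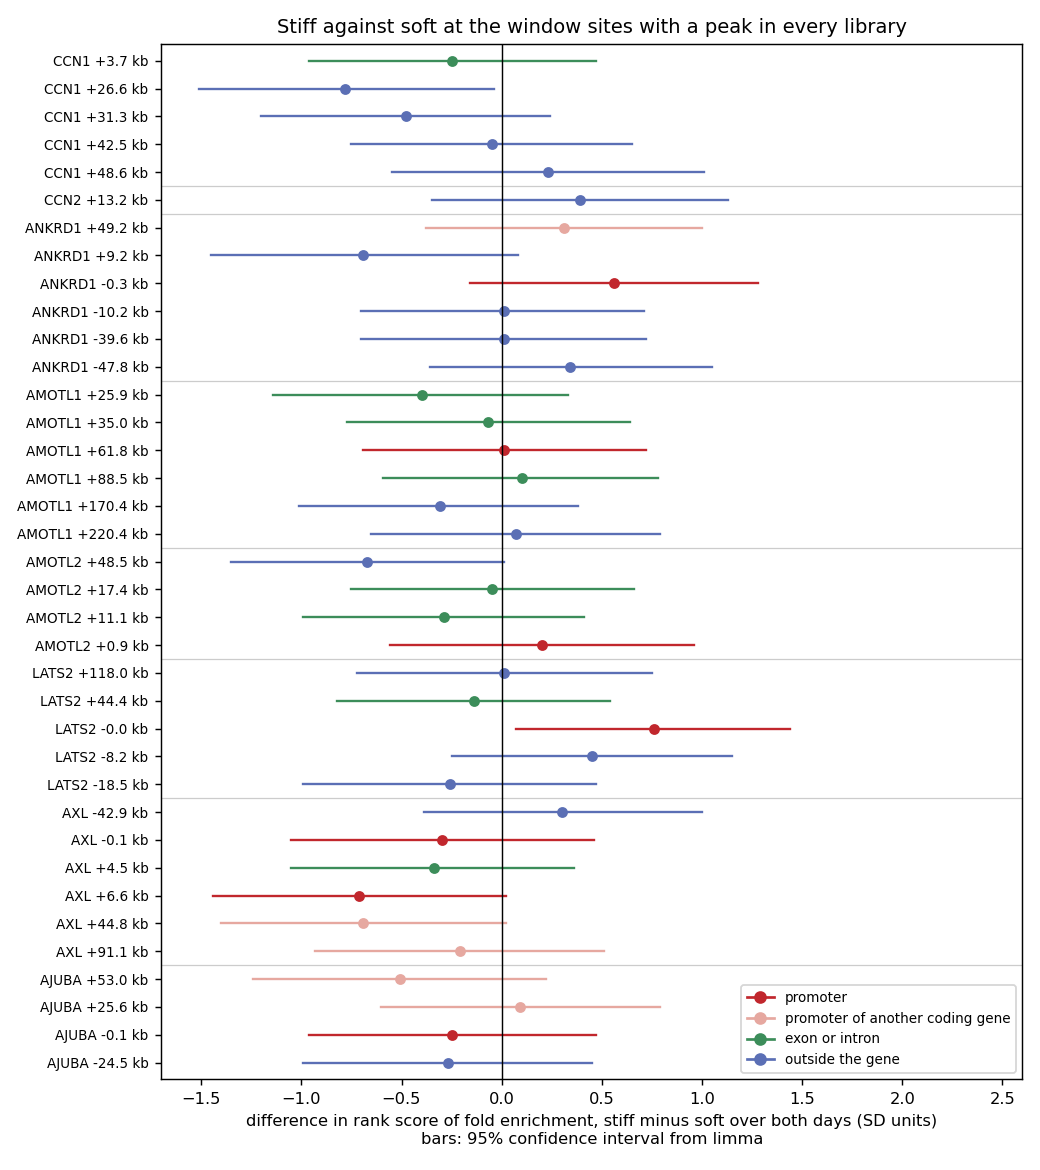
Difference in rank score of fold enrichment between stiff and soft matrices over both days (x axis, in SD of the ranking) at the 37 window sites with a peak in every library. Points are limma estimates, bars are 95% confidence intervals, and colours give the position of the site. The interval of the LATS2 promoter runs from 0.07 to 1.44 and that of the CCN1 site at +26.6 kb from −1.51 to −0.04, and the other 35 intervals include 0.

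By day, no window site was called either. On day 2 the lowest adjusted limma p among the 37 was 0.672, 0 window sites had an unadjusted p under 0.05 against 7.65% of all sites, and 0.00412% of all sites were called. On day 4 the lowest was 0.921, with 3 window sites at an unadjusted p under 0.05 against 5.35%, and 0.00825% of all sites were called. The 3 were the LATS2 upstream site, higher on the stiff matrix by 1.23 ± 0.48 (SE), and 2 CCN1 sites, at chr1:86077255-86079029 (−1.08) and in an exon at chr1:86049396-86050943 (−1.05).

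The interaction asks whether the effect of stiffness differed between the days. No site in the genome was called by limma (0%), and 2 window sites had an unadjusted p under 0.05, against 5.27% of all sites. They were the CCN1 exon site (−1.60) and the LATS2 upstream site (1.56), each with an adjusted p of 0.92. Between the days, over both matrices, no site was called by limma (0%), and 4 window sites had an unadjusted p under 0.05, against 6.91%. The CCN1 site at chr1:86077255-86079029 (−0.80) and AMOTL1 intronic sites at chr11:94473787-94474861 (−0.73) and chr11:94527147-94528323 (−0.69) ranked lower on day 4, and the LATS2 3′ site (0.77) ranked higher, all with adjusted p of 0.686 or above. The median difference between the days was −0.216 at the window sites and −0.0227 at all sites.

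Sequence was examined without regard to the matrix. GGAATG, on either strand within 100 bp of the summit, was found at 23 of the 85 window sites (27.1%), against 19.1% of all sites. Of the 11 promoter sites 6 held it (54.5%), those of CCN1, CCN2, ANKRD1, AMOTL2, LATS2 and the internal AJUBA start, against 9.28% of all coding promoter sites. The matches at AMOTL2 and LATS2 lie in exons and are not shown. The AP-1 letters were found at 21 window sites (24.7%) against 30.2% of all sites, and at 1 promoter site, the internal AXL start. The CArG box was found at 2 window sites (2.35%), against 1.15% of all sites. Both lay upstream of CCN1, but 1 was the promoter of the neighbouring gene DDAH1 and the other lay within DDAH1. These matches are descriptions of letters, and binding was not measured.

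A further list of 16 genes named as YAP or TAZ targets (MYOF, ASAP1, F3, IGFBP3, CRIM1, FJX1, FOXF2, GADD45A, CCDC80, NT5E, DOCK5, PTPN14, ARHGEF17, NUAK2, TGFB2 and RBMS3) was examined in the same way. Of these 16 genes, 12 had a promoter peak in all 8 libraries, a larger share than the 46.3% of coding genes. CRIM1, GADD45A and DOCK5 had one in 7, whereas FOXF2 had none. In their windows 20 of 249 sites (8.03%) were found on day 2 in stiff only, against 7.45% of all sites, and 14 (5.62%) on day 4, against 6.72%. On day 4 another 4 (1.61%) were found in soft only, against 1.31%, and on day 2 none was, against 0.391%. Of the 249 sites 2 (0.803%), in the windows of TGFB2 and RBMS3, had a peak in all stiff and no soft libraries, against 0.850%. None of their 86 sites found in every library was called by limma over both days, against 0.00825% of all sites, and the lowest adjusted p was 0.437. Their median difference was −0.149, beside −0.0174 over all sites. At an unadjusted limma p under 0.05, 1 was higher and 4 were lower on the stiff matrix. Among all 24246 sites tested, 1066 were higher and 805 lower at that threshold (7.72%).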

How the data were processed

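ATAC-seq had been performed on 8 libraries of LX-2 cells. Per the labels and the study's methods, the authors trimmed reads with Trim Galore, mapped them to hg19 with Bowtie2 (2.4.1) and called peaks in each library with MACS2 at q up to 0.05. Bedtools (2.24.0) and Picard are also named in the submitters' processing notes. The version and options of MACS2, read filters and the treatment of transposase offsets were not given in the sources used here. Each deposited list holds, per peak, the fold enrichment over background as a ratio, −log10 p and −log10 q values, a score, which was not used, and the summit offset, as the authors' caller wrote them. Read totals were not analysed here, and no count model was fitted.

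Peaks overlapping by at least 1 bp were merged into sites, kept if 2 or more libraries had a peak. Genes came from GENCODE release 44 on GRCh37. Promoters were sites within 1 kb of a protein-coding start. Summit pileup and background were solved from fold enrichment and p (pseudocount 1, Poisson tail, tolerance 0.01 on −log10 p). Depth in fragments per kb was the lowest background over the shortest peak. Rank scores were fitted with limma (3.58.1) with 4 group means, and the fit was tested on simulated data. Patterns of presence in 2 against 2 libraries carry no test. Named sites were every promoter site, the 2 best-ranked distal sites per gene, every site of a one-matrix pattern, the 5 smallest p-values over both days (no site was called), and up to 10 sequences. Sites named for the day, interaction and single-day comparisons, and by pileup, were chosen after their values were seen. The members and lists were chosen with earlier results of these data known.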

Additional observations from a re-analysis of the deposited data

Results flagged for a closer look

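Among 24 sets of 4 libraries (soft or stiff) examined with Dixon's gap ratio at its 95% critical value, 2 held a library apart from the other 3, where chance gives about 1 in 20. At the ANKRD1 promoter D4 stiff replicate 2 had a rank score of 2.16, above the 1.1 to 1.25 of the other stiff libraries. At the AMOTL2 promoter D2 soft replicate 1, the least deep library, had −0.30, above the −1.48 to −1.30 of the other soft libraries. Both sets join 2 days.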

How the results depend on the processing

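None of 82 limma contrasts, over the reported fit and 17 other settings, called a window site, with 0 to 0 calls when each library was left out. Fits over all sites called 2 over both days, 1 on day 2, 2 on day 4 and 0 between days, and on day 4 they called 0 when ranked by −log10 p. More sites were called in these comparisons without D2 soft replicate 2. In that fit D2 soft rests on replicate 1 alone, the least deep library. Lists shortened to equal length gave 46 window sites instead of 85, 0 day 2 stiff-only sites and 1 day 2 soft-only site. Windows of 100 kb gave 131 sites, with 11 day 2 and 2 day 4 stiff-only sites, and windows of 10 kb gave 45, 2 and 0. Without 1 library at a time, window sites numbered 80 to 85, genes with a promoter peak in every library 6 to 7, sites of all stiff and no soft libraries 0 to 3, of all soft and no stiff libraries 0 to 0, day 2 stiff-only sites 7 to 20 and soft-only sites 0 to 3, and day 4 stiff-only sites 1 to 11 and soft-only sites 0 to 2. Differences that changed sign when ranked by summit pileup, a setting chosen after seeing the data, were the AMOTL1 promoter (−0.06), the AMOTL2 downstream site (0.07), the first AXL start (0.13) and the first AJUBA start (0.01), and the first AXL start also by −log10 p (0.04). Without 1 library the AMOTL1 promoter ranged from −0.18 to 0.21, the AMOTL2 promoter from −0.13 to 0.53 and the first AXL start from −0.69 to 0.12, and the CCN1 site at +26.63 kb from −1.14 to −0.41, while the LATS2 promoter stayed between 0.63 and 0.87 and ANKRD1 between 0.33 and 0.79. The cause of these shifts was not tested. With a replicate block the LATS2 difference was again 0.76, and calls over both days again 2. Same-numbered libraries deviated together with correlations of −0.0414 to 0.0837, and peak names in the lists carry other numbers than the labels in 3 groups, so the numbers were not taken as pairs.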
